A study of Mus musculus with 4 samples.

Results

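In hybrid livers of B6 and MSM mice, 43 genes gave nearly all or most of their allele-assigned mRNA reads from the MSM allele in every mouse. They were selected on the B6-allele frequency. This is the number of a gene's B6 reads divided by its B6 and MSM reads together, so that 0.5 means equal use of both alleles and 0 means that all such reads came from the MSM allele. A gene entered if the mean of the 4 mice was at most 0.25 and every mouse was at most 0.3. Genes of large families (names starting with Cyp, H2-, Gst, Serpina, Mup, Rpl, Rps, Mrp, Zfp, Zkscan, Zscan, Slc25a, or Gm followed by digits, and 0610010B08Rik) were left out, which removed 19 of the 62 genes that passed the limits. The 43 genes are 1.18% of the 3632 genes with a frequency in all mice, among 8797 genes listed. The same limits mirrored around 0.5, with the same names left out, gave 57 B6-allele-dominant genes.

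The data are from the liver of 4 F1 females aged 5 months. The cross labelled MB had an MSM mother and a B6 father (2 mice), and the cross labelled BM had a B6 mother and an MSM father (2 mice). B6 is C57BL/6J, the strain of the mouse reference genome, and MSM is MSM/Ms, an inbred strain of another subspecies. Each mouse was untreated as far as the labels say and carried a full chromosome set of each strain. The labels do not say whether replicate mice were littermates, so tests between the crosses measure the spread between these 4 mice. FPKM (mapped fragments scaled to transcript length and to library size) gave the expression of each gene in whole liver, and the sum over the listed genes was 529024 to 671875 per mouse. The tables hold no reads per allele, so the depth behind a frequency is unknown and single values carry no interval.

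In an F1 hybrid both alleles of a gene share a nucleus and therefore the same transcription factors, signals and cell mixture. An allele that yields less mRNA than its partner in the same cells differs from it in linked sequence or in the chromatin state of that copy, and such differences are called *cis* effects. Promoters, enhancers, splice and polyadenylation signals, gene deletions and duplications and parental imprinting can all make alleles unequal. A frequency also depends on where reads are placed, since reads of a duplicated gene can be assigned to a sister copy.

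The frequency chose these genes, so their distance from 0.5 is a description and was not tested. The median of the 43 means was 0.171, against 0.510 over all genes with a frequency. Among the 43 genes, 17 had a mean under 0.1, 10 a mean from 0.1 to 0.2 and 16 a mean above 0.2. In 8 genes at least 1 mouse was listed at 0. The genes lay on 18 chromosomes (42 had a position), with at most 6 on 1 chromosome, which was chromosome 19, and 2 lay on the X chromosome. Most genes with a frequency lie beyond 100 Mb on chromosomes 1 to 15 and X, or beyond 10 Mb on chromosomes 16 to 19. Counts per chromosome depend on this coverage and were not compared. Of the 42 genes, 39 were annotated as protein coding.

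**Figure D1:**
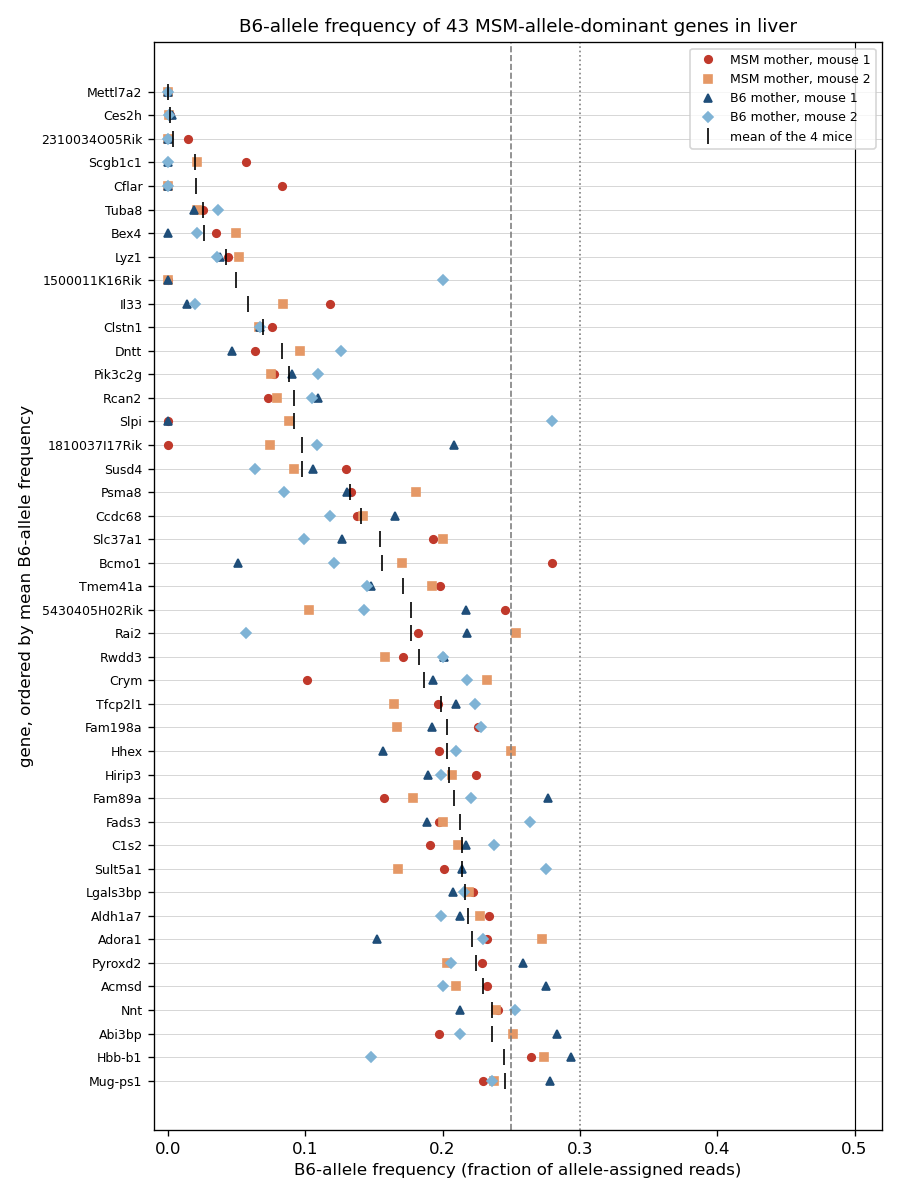
B6-allele frequency (x axis, fraction of allele-assigned reads) of each of the 43 genes (y axis, ordered by mean) in the 4 mice, with the mean as a black bar, the limits of 0.25 on the mean (dashed) and 0.3 on every mouse (dotted), and a solid line at 0.5. The lowest genes cluster at 0, and the widest spreads are those of Slpi, 1500011K16Rik and Bcmo1.

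Genes just inside the limits were Mug-ps1 with a mean of 0.245, Hbb-b1 with 0.245 and Abi3bp with 0.236. Abi3bp had 0.197 and 0.252 in the MSM-mother mice and 0.283 and 0.213 in the B6-mother mice. Just outside was the interferon-induced GTPase gene Gbp4 with a mean of 0.251 (0.227 and 0.203 in the MSM-mother mice, 0.317 and 0.259 in the B6-mother mice). Ano10 had 0.255 (0.292 and 0.215, 0.259 and 0.254) and Mmd2 had 0.257 (0.211 and 0.276, 0.264 and 0.275). Another 9 genes had a mean within the limit and at least 1 mouse above 0.3.

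The metabolic enzymes and transporters formed the largest group, with 11 genes, a median of their mean frequencies of 0.212 and a median FPKM of 17.4. Among the lowest frequencies was that of Ces2h (chr8:105000853-105021178, GRCm38), a carboxylesterase of the family that hydrolyzes esters and amides of drugs and lipids in liver. Its frequencies were 0.00130 and 0.00110 in the MSM-mother mice and 0.00282 and 0.000964 in the B6-mother mice. Thus 99.8% of its allele-assigned reads came from the MSM allele, at an FPKM of 20.75, 17.20, 20.01 and 16.99 in the same order, and neither measure separated the crosses. Mettl7a2 (chr15:100353200-100361840), a methyltransferase-like gene, was listed at 0 in all 4 mice, with FPKM values of 5.87, 2.48, 3.46 and 4.92. The whole of Mettl7a2 overlaps Methig1 on the same strand in the annotation, so reads of these genes cannot be told apart by position.

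The highest expression among the 43 genes was that of Aldh1a7 (chr19:20692953-20727562), an aldehyde dehydrogenase. Its FPKM was 369 and 280 in the MSM-mother mice and 302 and 258 in the B6-mother mice, and its frequency was 0.234, 0.227, 0.213 and 0.199. Expression overlapped between the crosses, and the frequency did not. Sult5a1, a sulfotransferase, had FPKM values of 73.3, 51.3, 109 and 64.1 and frequencies of 0.201, 0.168, 0.214 and 0.275. Its FPKM varied more between the B6-mother mice than between the means of the crosses. Acmsd, which diverts an intermediate of tryptophan breakdown away from NAD synthesis, had FPKM values of 56.4, 42.2, 43.2 and 34.9 and frequencies of 0.232, 0.210, 0.275 and 0.2. Both measures of Acmsd overlapped between the crosses.

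Nnt (chr13:119335448-119408997) encodes the nicotinamide nucleotide transhydrogenase of the inner mitochondrial membrane, which makes NADPH, and C57BL/6J is known for a deletion inside this gene. Its B6-allele frequency was 0.240 and 0.239 in the MSM-mother mice and 0.212 and 0.253 in the B6-mother mice, so reads of the B6 allele were a steady minority and not absent. The FPKM of Nnt was 34.1 and 37.5 in the MSM-mother mice and 46.9 and 42.0 in the B6-mother mice.

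Pyroxd2, a pyridine nucleotide-disulfide oxidoreductase-like protein, had a mean frequency of 0.224 and a mean FPKM of 17.4. The fatty acid desaturase gene Fads3 had a mean frequency of 0.212, and Crym, which binds thyroid hormone, had 0.186. Bcmo1, now called Bco1, which cleaves beta-carotene to retinal, had frequencies of 0.280, 0.171, 0.0513 and 0.121, the third widest spread among the 43 genes (SD 0.0962, n = 4). Slc37a1, a sugar-phosphate exchanger of the endoplasmic reticulum, is described with the crosses.

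Secreted, immune and cell death genes numbered 10, with a median frequency of 0.0876, and 7 of them had a mean under 0.1. Lyz1 (chr10:117287797-117292868), the lysozyme best known from Paneth cells of the gut, had frequencies of 0.0435, 0.0519, 0.0379 and 0.0358 and FPKM values of 11.97, 12.01, 11.03 and 14.7. The values were among the most uniform, with an SD of 0.00720 (n = 4). Susd4, a complement regulator, had frequencies of 0.130, 0.0915, 0.106 and 0.0637 at FPKM values of 29.5, 28.2, 29.8 and 26.8, an expression that varied little between mice. Lgals3bp, a secreted glycoprotein that binds galectins, had frequencies of 0.222, 0.220, 0.208 and 0.215, with an SD of 0.00629 (n = 4).

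The secretoglobin gene Scgb1c1 had a mean of 0.0196, and both B6-mother mice were listed at 0. The caspase-8 regulator Cflar was at 0.0833 in MSM-mother mouse 1 and listed at 0 in the others. Cflar lies at chr1:58711508-58758884, in a part of the genome where few frequencies were given: 97.4% of the positioned genes with a frequency lie beyond 100 Mb on chromosomes 1 to 15 and X or beyond 10 Mb on chromosomes 16 to 19, and Cflar is the only positioned gene among the 43 that does not. Slpi, an inhibitor of leukocyte proteases, had frequencies of 0, 0.0882, 0 and 0.280, the widest spread of the 43 genes (SD 0.132, n = 4), at FPKM values of 2.87, 6.46, 1.95 and 4.77. In each cross the mouse with the higher FPKM also had the higher frequency.

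C1s2, which encodes a protease related to complement C1s, had a mean frequency of 0.214. Dntt, known for adding nucleotides to rearranging antigen receptor genes in lymphocyte precursors, had a mean of 0.0832 at FPKM values of 6.30, 2.45, 4.58 and 2.05. None of 6 lymphocyte markers fixed for comparison (Cd79a, Ms4a1, Cd3e, Cd3d, Nkg7 and Trbc2) was listed in the tables used here. The hepatocyte markers Alb and Trf were not listed either, so a gene that is not listed cannot be taken as not expressed. Mug-ps1, a transcribed pseudogene of the murinoglobulins, which are protease inhibitors of plasma, had frequencies of 0.229, 0.237, 0.278 and 0.236 at FPKM values of 71.0, 99.6, 73.4 and 72.0.

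Signalling, transcription and chromatin genes numbered 9, with a median frequency of 0.183 and a median FPKM of 4.91. Hhex (chr19:37434810-37440731), a homeobox factor required for liver development, was the most highly expressed of them. Its FPKM was 32.3, 26.9, 21.3 and 28.1, and its frequency 0.197, 0.2498, 0.156 and 0.210. The crosses overlapped in both. Tfcp2l1, a transcription factor of the grainyhead-related family, had a mean frequency of 0.199, the adenosine A1 receptor gene Adora1 0.222 and Hirip3, whose product binds the histone chaperone HIRA, 0.205. Rwdd3, an enhancer of SUMO conjugation, had 0.183. The calcineurin regulator Rcan2 had 0.0916 and the class II phosphoinositide kinase gene Pik3c2g 0.0880.

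Bex4 and Rai2 were the X-linked genes among the 43. Bex4 had frequencies of 0.0349, 0.05, 0 and 0.0213, lower on average than every other of 78 X-linked genes with a frequency. Rai2 had 0.182, 0.253, 0.218 and 0.0566, and 2 X-linked genes had a lower mean. In female mice 1 X chromosome is silenced in each cell, and the median over the X-linked genes was 0.323 and 0.532 in the MSM-mother mice and 0.325 and 0.265 in the B6-mother mice. The X-linked genes as a whole thus gave fewer B6 than MSM reads in 3 of the 4 mice, and Bex4 lay far below each mouse's median.

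The 5 genes of cell structure, traffic and proteolysis had a median frequency of 0.132. Tuba8, an alpha-tubulin, had a mean of 0.0258. The calsyntenin gene Clstn1, an adaptor for kinesin cargo, had frequencies of 0.0758, 0.0661, 0.0673 and 0.0671 and one of the 5 smallest spreads (SD 0.00450, n = 4). Psma8, a proteasome subunit gene best known from testis, had 0.132, the centriolar gene Ccdc68 0.141 and the matrix protein gene Abi3bp, the least expressed of the 43 genes with a mean FPKM of 2.53, had 0.236.

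The remaining 7 genes were noncoding or little characterized. The long noncoding RNA gene 2310034O05Rik was at 0.0145 in MSM-mother mouse 1 and listed at 0 in the others. 1500011K16Rik, now called Mtln, encodes a mitochondrial micropeptide and was listed at 0 in 3 mice and at 0.2 in B6-mother mouse 2, with FPKM values of 25.7, 16.96, 12.7 and 13.8. 1810037I17Rik had frequencies of 0, 0.0741, 0.208 and 0.109 at FPKM values of 30.9, 20.2, 19.1 and 22.2. Both of these small genes had a wide spread of the frequency, and their FPKM does not tell how many allele-assigned reads lie behind it. Tmem41a had a mean frequency of 0.171, 5430405H02Rik 0.177, Fam198a 0.203 and Fam89a 0.208.

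Hbb-b1, a beta-globin gene of red cells, stood apart as an RNA of blood. Its FPKM was 272 and 89.3 in the MSM-mother mice and 446 and 209 in the B6-mother mice, and its frequency 0.264, 0.274, 0.294 and 0.148. A name for a second beta-globin gene, Hbb-b2, had the opposite frequency, from 0.976 to 1. The summed FPKM of 4 listed red cell markers was 308, 128, 769 and 449 and was lowest and highest in the same mice as Hbb-b1. The globin names were not tied to a position here, and laboratory strains differ in which beta-globin copies they carry. The part of blood content in the FPKM of Hbb-b1 was not tested, and fewer cells of a type and less RNA per cell cannot be told apart in whole liver.

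Expression of the 43 genes ran from a mean FPKM of 2.53 to 302. Their median was 7.46 (quartiles 4.10 and 19.97), against 11.5 over all genes with a frequency and 9.01 over the B6-allele-dominant genes. Under an FPKM of 5 lay 16 of the 43 genes (37.2%), against 21.9% of all genes with a frequency, and 11 genes had an FPKM of at least 20. The median coefficient of variation of FPKM over the 4 mice was 16.9%, against 11.4%.

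**Figure D2:**
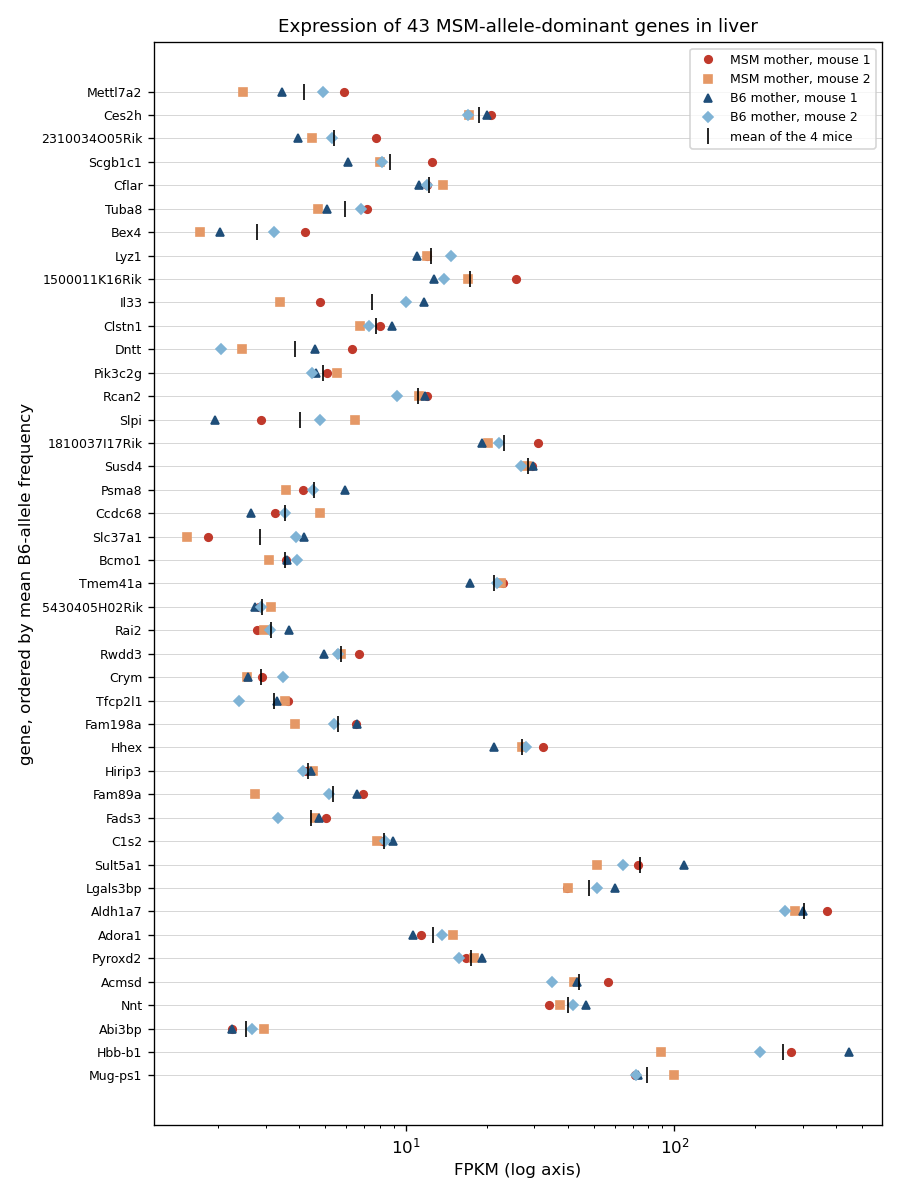
FPKM (x axis, log axis) of the 43 genes (y axis, ordered by mean B6-allele frequency) in the 4 mice, with the mean as a black bar. High and low values occur along the whole order, and Il33 and Slc37a1 have both B6-mother mice well above both MSM-mother mice.

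With all expression levels pooled, the spread of the frequency itself between mice was close to that of other genes. The median SD over the 4 mice was 0.0285, against 0.0272 over all genes with a frequency and 0.0266 over the B6-allele-dominant genes. It differed by expression level. At an FPKM of at least 20 it was 0.0285, against 0.0183 over all genes with a frequency. From 5 to 20 it was 0.0236 against 0.0281, and under 5 it was 0.0371 against 0.0430. On the log2 odds scale, which stretches values near 0, the median SD was 0.32 against 0.16. Across genes, Spearman's rho of mean FPKM and SD was -0.182 over the 43 genes and -0.364 over the 3632 genes, as a description over genes that share the same 4 libraries. The limit of 0.3 on every mouse caps the SD that a gene of the set can have.

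**Figure D3:**
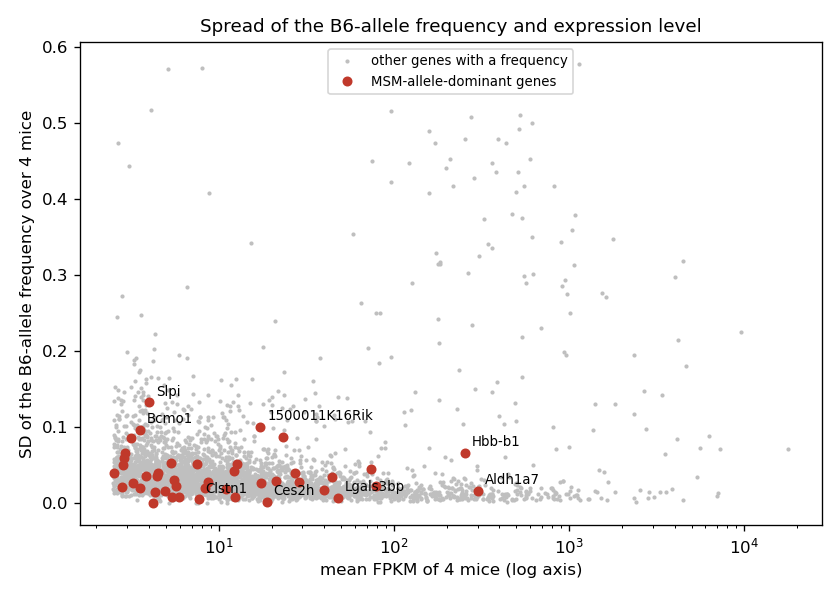
SD of the B6-allele frequency over the 4 mice (y axis) against mean FPKM (x axis, log axis) for the 43 genes (red) and the other genes with a frequency (grey). Slpi, at 0.132, has the largest SD of the 43 genes, and Ces2h and Lgals3bp lie near 0.

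Sequence shared with other genes was searched for in GENCODE transcripts of the GRCm38 assembly. Among 42 genes with transcripts, 11 (26.2%) shared at least 1 window of 100 bases with a transcript of another gene, against 18.8% of all genes with a frequency. A gene annotated at the same place counted as another gene here. Gm49343 and Gm23497, the only genes sharing windows with Fam198a and Tfcp2l1, overlap them on the same strand. Mettl7a2 shared 53.4% of its windows, and it was the only one of the 42 genes at or above 50%. Bex4 shared 26.02%, Mug-ps1 24.0%, C1s2 8.78% and Cflar 7.85%. Lyz1 shared 2.06% with Lyz2, and Aldh1a7 shared 1 of 1967 windows with Aldh1a1. The authors kept at most 1 alignment per read, and the part of reads placed at sister copies in these frequencies was not tested. Ces2h, Nnt, Lgals3bp, Il33, Slc37a1 and Hhex shared no window.

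The frequencies of neighbouring genes were set beside those of the 43 genes. The nearest gene with a frequency had a median of 0.513 over 42 genes, and for 30 of them (71.4%) it lay between 0.4 and 0.6, against 79.7% when every gene with a frequency is asked for its nearest. For 2 of the 42 genes (4.76%) the nearest such gene was at 0.25 or below, against 1.77% over all genes with a frequency. Within 1000 kb there were 531 pairs of a gene of the set and a neighbour, with a median of 0.514, of which 5 had a neighbour at or below 0.25 and 15 a neighbour at or above 0.75.

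Sister genes on the same chromosome were set beside some genes of the set. The rule holds a gene of the set at or below 0.25, so its distance from a sister gene near 0.5 follows from the rule. The sister genes named here were chosen after their values were seen. Lyz2, the lysozyme of macrophages and neutrophils, lies 5.48 kb from Lyz1 and had frequencies of 0.868, 0.910, 0.914 and 0.864, so that the neighbouring lysozyme genes were dominated by opposite alleles in every mouse. Ces2h lies 27.4 kb from Ces3a with a mean of 0.360, 66.2 kb from Ces2e with 0.637 and 259 kb from Ces2a with 0.919, and these carboxylesterase genes thus spanned nearly the whole scale. Aldh1a1, 49.5 kb from Aldh1a7, had 0.534, 0.547, 0.548 and 0.529. Fads2, 2.65 kb from Fads3, had a mean of 0.509, and Mettl7a1, 24.5 kb from Mettl7a2, had 0.621. C1s1, 82.3 kb from C1s2, had 0.623. Mug1 had 0.699 and Mug2 0.480, against 0.245 for Mug-ps1. A neighbour on the same side was Cyp8b1, a bile acid enzyme left out by name, which lies 34.7 kb from Fam198a and had frequencies of 0.164, 0.145, 0.247 and 0.239.

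**Figure D4:**
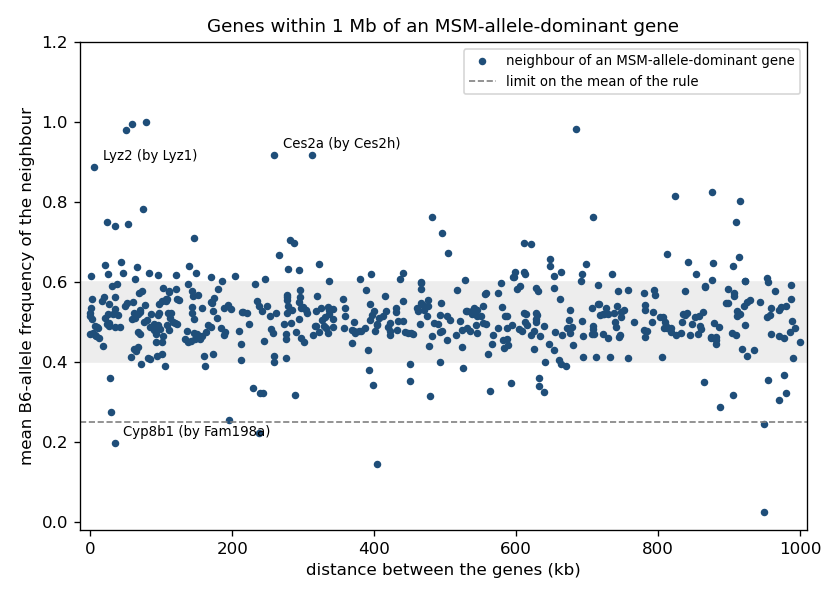
Mean B6-allele frequency (y axis) of genes within 1000 kb of 41 of the 43 genes (Hbb-b1 has no position and Bcmo1 no such neighbour) against the distance between the genes in kb (x axis), with the range from 0.4 to 0.6 shaded and the limit of 0.25 dashed. Most neighbours lie in the shaded range at every distance, while Lyz2 and Ces2a lie near 0.9.

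Promoters were read from RefSeq for GRCm38.p6, as 250 bases before to 50 bases after each start, and 33 of the 43 genes matched. The letters TATAAA, searched on both strands, were found in 7 of the 33 genes (21.2%), against 9.79% of genes with a frequency and 15.7% of all genes with a promoter. Between 20 and 40 bases before a start, where a TATA box usually lies, they were found in 3 genes (9.09%), against 2.05% and 2.41%. A pair of GAAA separated by 2 bases of any kind, as in sites of interferon regulatory factors, searched on both strands, was found in Cflar and Slc37a1 (6.06%), against 3.26% and 3.99%. These are matches of letters in the B6 reference sequence, and they do not show where the MSM allele differs.

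The stretches before the start are shown for these 3 genes, with TATAAA in capitals, and for Ces2h and Lyz1, which are near 0 in every mouse and hold no such letters. The stretches of Bcmo1 (66 bases) and Tfcp2l1 (58 bases) are cut where an annotated exon of the gene begins. They thus end short of the start used, from which TATAAA lies at position -28 in both genes. Il33 has a pair of annotated starts, with TATAAA at position -203 from the first, outside the stretch shown, and at position -29 from the second. The stretches run from chr8:117095785 to 117095850 for Bcmo1, chr1:118627865 to 118627922 for Tfcp2l1, chr19:29925033 to 29925112 and chr19:29945710 to 29945789 for Il33, chr8:105000750 to 105000829 for Ces2h (all plus strand) and chr10:117292869 to 117292948 for Lyz1 (minus strand).
Bcmo1: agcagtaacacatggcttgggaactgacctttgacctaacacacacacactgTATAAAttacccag
Tfcp2l1: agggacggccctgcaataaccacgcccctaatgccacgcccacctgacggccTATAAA
Il33, first start: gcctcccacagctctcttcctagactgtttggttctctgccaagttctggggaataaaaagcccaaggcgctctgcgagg
Il33, second start: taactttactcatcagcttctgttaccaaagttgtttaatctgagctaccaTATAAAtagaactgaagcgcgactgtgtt
Ces2h: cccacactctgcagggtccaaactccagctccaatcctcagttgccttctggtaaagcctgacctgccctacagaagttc
Lyz1: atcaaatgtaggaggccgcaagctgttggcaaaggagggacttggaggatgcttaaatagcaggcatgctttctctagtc

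The reciprocal crosses differ in which parent gave which allele. They also differ in the strain of the mother, and the labels do not exclude separate litters. A difference in FPKM between the crosses cannot tell these apart. FPKM was not used to choose the genes, and it was compared between the crosses with limma on log2(FPKM + 1) over all 8797 genes, with Benjamini-Hochberg adjustment. No gene of the 43 passed an adjusted p of 0.05, while 4 genes of all tested did (0.0455%). At an unadjusted p under 0.05 stood 4 of the 43 genes (9.30%), against 8.87% of all genes tested. Both mice of a cross lay above both of the other in 14 of the 43 genes (32.6%), against 42.4% of all genes, with the MSM-mother mice higher in 6 and the B6-mother mice higher in 8. Leaving out a mouse leaves 1 mouse in a cross, so no counts are given for such fits.

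The clearest FPKM difference was that of Il33 (chr19:29925114-29960718), an alarmin cytokine released from damaged cells. Its FPKM was 4.76 and 3.40 in the MSM-mother mice and 11.7 and 9.98 in the B6-mother mice. The crosses did not overlap, and the MSM-mother mice differed from them by -1.23 on the log2(FPKM + 1) scale (SE 0.17, limma adjusted p = 0.251). The B6-allele frequency ran the other way, at 0.118 and 0.0838 against 0.0136 and 0.0195. Multiplied out, the share of FPKM from the MSM allele was 4.20 and 3.12 in the MSM-mother mice and 11.5 and 9.78 in the B6-mother mice, while the B6 share was 0.562, 0.285, 0.159 and 0.194. The rule keeps every mouse at or below 0.3, so the MSM share is most of the FPKM in each mouse. That most of the FPKM difference lay in this share follows largely from the rule, and no effect of the parent is read from it. The MSM allele came from the father in the B6-mother mice. The summed FPKM of 8 listed Kupffer cell markers was 250 and 214 against 309 and 278, and that of 9 sinusoidal endothelium markers was 209 and 192 against 216 and 228. Both sums were higher in the B6-mother mice. The summed FPKM of 5 listed stellate cell markers was 255.7 and 235 against 219 and 244, overlapping between the crosses. That of 10 listed hepatocyte markers was 50954 and 46557 against 36639 and 44354, lower in the B6-mother mice. Apoa2 was the largest part of this sum (22852 and 16982 against 13954 and 17581) and overlapped between the crosses. Cps1 and Ahsg overlapped too, and Ahsg was 6678 and 7132 against 6964 and 7697. The other listed hepatocyte markers (Apoa1, Ttr, Ass1, Pck1, Tat, Hpd and Fgb) were lower in both B6-mother mice. The part of the cell mixture in the Il33 values was not tested.

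Slc37a1 (chr17:31286792-31350739) separated the crosses in the same directions. Its FPKM was 1.83 and 1.53 in the MSM-mother mice and 4.16 and 3.89 in the B6-mother mice, a difference of -0.91 on the log2(FPKM + 1) scale (SE 0.13, limma adjusted p = 0.264). Its frequency was 0.193 and 0.2 against 0.127 and 0.0991. The MSM share of its FPKM was 1.48 and 1.22 against 3.64 and 3.502, and the B6 share 0.354 and 0.306 against 0.527 and 0.385, so both shares were higher in the B6-mother mice.

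Lgals3bp was next, with FPKM values of 39.8 and 40.1 against 60.0 and 51.5, a difference of -0.47 (SE 0.14, limma adjusted p = 0.463). Its frequency hardly moved, so that the MSM and B6 shares were both higher in the B6-mother mice. Of the opposite direction was 1500011K16Rik, at a difference of 0.62 (SE 0.20, limma adjusted p = 0.495).

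**Figure D5:**
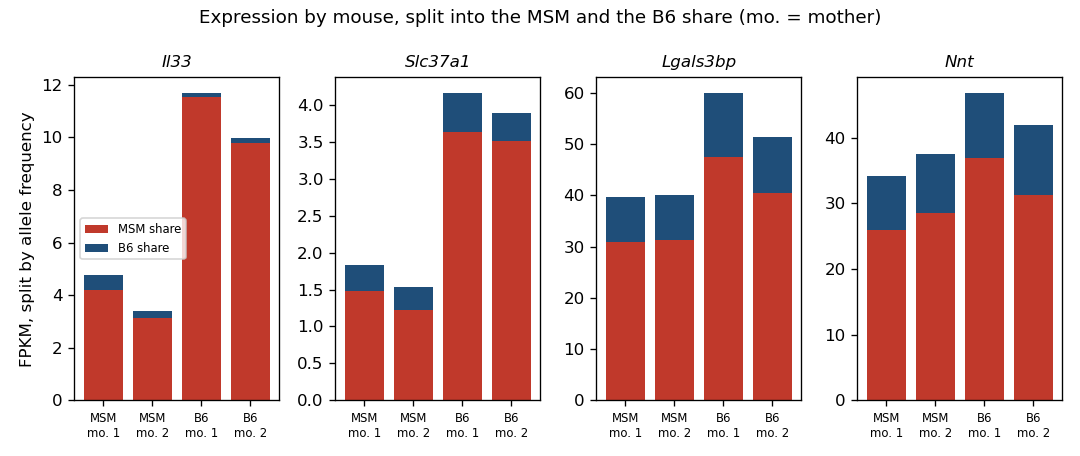
FPKM (y axis) of Il33, Slc37a1, Lgals3bp and Nnt in each of the 4 mice (x axis, by the strain of the mother), split by the B6-allele frequency into the MSM share (red) and the B6 share (blue). The MSM share of Il33 is 11.5 and 9.78 in the B6-mother mice and 4.20 and 3.12 in the MSM-mother mice.

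The B6-allele frequency was compared between the crosses with limma on the log2 odds, after limiting values to 0.01 to 0.99. The rule bounds the size of such a difference but not its direction. None of the 43 genes passed an adjusted p of 0.05, and 3 of the 3632 genes with a frequency did (0.0826%). Fits without a mouse leave 1 mouse in a cross, and no counts are given for them. At an unadjusted p under 0.05 stood 8 of the 43 genes (18.6%), against 5.23% of all genes. On the frequency itself, without the log2 odds, it was 4 of the 43 genes (9.30%), against 5.31% of all genes. These are the same values that chose the genes, and the log2 odds stretch low frequencies, so nothing is read from the difference in shares. The crosses did not overlap in 20 of the 43 genes (46.5%), against 34.3%, with the MSM-mother mice higher in 12 and the B6-mother mice higher in 8.

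Il33 had the smallest p, with a difference of 2.74 in log2 odds (SE 0.30, limma adjusted p = 0.534). Tmem41a followed, with frequencies of 0.198 and 0.193 in the MSM-mother mice and 0.148 and 0.145 in the B6-mother mice (difference of 0.50 in log2 odds, SE 0.08, limma adjusted p = 0.796). Slc37a1 differed by 0.95 (SE 0.18, limma adjusted p = 0.8293). Rcan2 differed the other way, at 0.0729 and 0.0797 against 0.109 and 0.105, by -0.54 in log2 odds (SE 0.10, limma adjusted p = 0.8293). In no case did the maternal or paternal origin turn the dominance, since the rule kept every mouse at or below 0.3.

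In 10 of the 43 genes (23.3%) the crosses did not overlap in either measure, against 14.6% of all 3632 genes. In 8 of the 43 genes (18.6%), against 7.82%, the cross with the higher FPKM had the lower B6-allele frequency. The frequency that enters these counts also chose the genes, so nothing is read from the difference in shares. The 8 genes were Il33, Slc37a1, Lgals3bp, Psma8, Bcmo1, Pik3c2g, Rwdd3 and Tfcp2l1. In C1s2 and Tmem41a the same cross was higher in both.

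The sampled tissue carried liver markers, with 10 of 12 hepatocyte markers listed at a summed FPKM of 36639 to 50954. The hepatocyte markers not listed were Alb and Trf, so absence from the list does not show that a marker was not expressed. No neutrophil or adipocyte marker was listed, 1 of 6 cholangiocyte markers was (summed FPKM 9.51 to 14.6) and 1 of 5 pancreas markers was (10.6 to 13.5). Of 7 stellate cell markers 5 were listed, at a summed FPKM of 219 to 255.7.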

How the data were processed

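Liver poly(A) RNA of 4 F1 mice was sequenced with a directional kit. Per the paper's methods, Trim Galore was used for trimming and TopHat2 for alignment (1 alignment per read, strand set), with SNP positions of the mm10 genome masked, and the authors deposited an FPKM value per gene and mouse. SNPsplit assigned reads to alleles and Cuffdiff counted them, and the authors deposited the B6-allele frequency as a fraction, B6 reads over the reads of both alleles. Versions are not given in the sources used here.

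From these values, means, SDs and medians were computed, and the crosses were compared with limma 3.58.1 in R 4.3.3 (two-sided, Benjamini-Hochberg over all genes tested, threshold 0.05). FPKM was tested as log2(FPKM + 1) with a trend, for genes with a mean of at least 1, a scale that understates changes of low genes, and frequencies as log2 odds limited to 0.01 to 0.99. An exact permutation test of 2 against 2 mice cannot give a p below 0.333. The scripts were tested on simulated data. Other steps used Python 3.11.15, pandas 2.3.3, numpy 2.4.6, scipy 1.17.1 and, for figures, matplotlib 3.10.9.

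Positions came from GENCODE M21 by symbol for 40 genes and by RefSeq synonym for 2, and 1 gene had none. The genes, lists and functional groups (by hand, from textbook knowledge) were chosen with earlier results of these data known. Values in all mice are given for the 10 genes with the highest FPKM, the 5 with the largest and the 5 with the smallest SD of the frequency, genes listed at 0 in all mice, the genes with the smallest p between the crosses, and genes at the limits. Values in all mice of other genes, and the sister genes, were chosen after they were seen. Limits, FPKM filters, pseudocounts, scales, leaving out each mouse and a replicate block were the alternatives.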

Additional observations from a re-analysis of the deposited data

Results flagged for a closer look

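In 6 frequencies and 1 FPKM, 1 of the 4 mice lay far from the others relative to their range. All 4 mice were taken as a single set here, and the limit marks about 1 in 20 such sets if the values are normally distributed. Where all other mice are at 0, any value above 0 is marked, so that rate does not hold there. The B6-allele frequency of 1500011K16Rik was 0.2 in B6-mother mouse 2 and 0 in the others. That of 2310034O05Rik was 0.0145 and that of Cflar 0.0833 in MSM-mother mouse 1, with the other mice at 0. Clstn1 was at 0.0758 in MSM-mother mouse 1 and from 0.0661 to 0.0673 in the others. Fads3 was at 0.264 in B6-mother mouse 2 and from 0.188 to 0.2 in the others. Mug-ps1 had a frequency of 0.278 in B6-mother mouse 1 against 0.229 to 0.237, and an FPKM of 99.6 in MSM-mother mouse 2 against 71.0 to 73.4. The depth behind these values is unknown.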

How the results depend on the processing

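The number of genes fell from 43 to 19 with a limit of 0.2 on the mean and every mouse, to 27 with a mean FPKM of at least 5 and to 18 with a mean FPKM of at least 10. Leaving out a mouse gave 44 to 53 genes. The 53 came without MSM-mother mouse 2, and 7 of the 10 genes added then are X-linked. The median FPKM was 5.93 over genes beyond 100 Mb (10 Mb on chromosomes 16 to 19) and 6.21 to 8.05 without a mouse. The median SD of the frequency was 0.0212 to 0.0289 under all settings run. Genes called between the crosses in FPKM numbered 13 to 21 without a mouse, and in frequency 0 to 6. Limits of 0.001 on the frequency gave 1 called gene. With the replicate number as a block, the FPKM count was 285, and 4 of the 43 genes were called (1500011K16Rik, Hbb-b1, Il33 and Slc37a1). Mice with equal numbers did not deviate together in FPKM (correlation 0.00375, and 0.146 in log2 odds), and the labels do not say that a number marks a litter or batch. With this block, the limma adjusted p in FPKM was 6.13e-08 for Il33 and 0.000629 for Slc37a1, in a fit with less left to estimate the spread from. With all mice and no block it ran from 0.192 to 0.285 for Il33 and from 0.220 to 0.285 for Slc37a1. The direction of both genes held in each setting. The median difference between the crosses over the 43 genes was near 0 and changed sign, from 0.06 to -0.03 in log2(FPKM + 1) without MSM-mother mouse 1, and from 0.00201 in log2 odds to -0.000694 on the frequency itself. Depth per allele is unknown, which limits the precision of each frequency.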
